A study of Drosophila melanogaster with 2 samples.

Results

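The proteasome is the large protease of the cytosol and nucleus that degrades proteins marked with ubiquitin. Binding of the Drosophila melanogaster protein CG32772 near the genes for its subunits was examined in peak lists from chromatin immunoprecipitation and sequencing (ChIP-seq). The genes were chosen by symbol, as the protein-coding genes of the annotation whose name starts with Prosalpha, Prosbeta, Rpn and a digit, or Rpt and a digit. They number 48 of 13968 protein-coding genes on the chromosome arms. The material was whole embryos aged 0 to 24 h of strain CG32772-GFP, transgenic flies that make CG32772 joined to eGFP, and anti-GFP antibody was used to pull down chromatin carrying it. Every sample has the transgene, nothing read here states its promoter, and whole embryos mix all cell types. There was 1 group of 2 libraries, given as biological replicates, so conditions could not be compared. The files hold peak calls and no read counts, so library depth is unknown.

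The proteasome is built from a barrel-shaped core particle and a regulatory particle that caps it. In the core, rings of Prosalpha subunits form the gate and rings of Prosbeta subunits hold the protease sites. In the regulatory particle, the base contains the Rpt ATPases, which unfold the substrate, together with scaffold and ubiquitin-binding Rpn subunits, and the lid contains the other Rpn subunits, among them the enzyme that removes ubiquitin. Drosophila also has paralogues of many subunits, several of which are known from the testis. Of the 48 genes, 32 carry a plain subunit number and are called standard here, and 16 carry an added letter R or T and are called paralogues. The core particle accounts for 25 genes and the regulatory particle for 23.

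A gene is called bound when the summit of a peak in the authors' conservative joint list (4699 peaks on the arms, the main list here) lay within 500 bp of an annotated transcription start site (TSS) of the gene. A divergent partner is a protein-coding gene on the opposite strand whose start site lies within 500 bp upstream and points away. The signal is the authors' value for each peak, with a scaling that is not stated, and ranks run from the strongest peak, with the percentile counted so that the strongest call of a list is highest. Intervals for shares are exact 95% binomial intervals and cover counting error only. For a count of 0 the limit of 3 counts of the total is given beside the upper bound of that interval, which is the higher value.

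The sequences below show the bound promoters off the right arm of the second chromosome, and then a pair of divergent promoters without a main-list summit for contrast, chosen as those with the closest start sites among unbound standard subunit genes. All are from the plus strand of the RefSeq copy of dm6. Capitals mark TATCGATA, the DNA replication-related element bound by the factor DREF, and any of the 10 sequences of 7 bases that gained most at strong main-list summits elsewhere. The Prosbeta2 sequence (chr3L:14999666-14999951) runs from the start site of its partner mRpL39 at base 1 to its own at base 286, with the summit at base 161. The Rpn3 sequence (chr2L:19051612-19051847) has the start site of its partner l(2)37Bb at base 1, the summit at base 176 and the Rpn3 start site at base 179. The Rpn5 sequence (chr3R:5789255-5789493) has the summit at base 61, the start site of the partner Hat1 at base 130 and that of Rpn5 at base 239. The Rpt3 sequence (chrX:11124732-11124852) is centred on the summit at base 61. The Rpt5 sequence (chr3R:23752795-23752915) has the start sites of RanBP3 at base 40 and Rpt5 at base 82. The Rpt4 sequence (chrX:6291214-6291334) has those of Rpt4 at base 32 and mldr at base 90.
Prosbeta2, bound: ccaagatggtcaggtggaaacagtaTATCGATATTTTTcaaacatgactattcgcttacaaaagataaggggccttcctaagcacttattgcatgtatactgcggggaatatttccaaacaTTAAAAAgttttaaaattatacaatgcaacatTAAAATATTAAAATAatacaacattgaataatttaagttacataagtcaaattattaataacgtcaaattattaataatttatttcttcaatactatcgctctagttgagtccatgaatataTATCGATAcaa
Rpn3, bound: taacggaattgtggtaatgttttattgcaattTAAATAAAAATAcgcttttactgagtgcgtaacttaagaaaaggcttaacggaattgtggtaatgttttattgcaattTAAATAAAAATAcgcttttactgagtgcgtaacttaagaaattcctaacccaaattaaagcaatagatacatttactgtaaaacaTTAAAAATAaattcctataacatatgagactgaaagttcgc
Rpn5, bound: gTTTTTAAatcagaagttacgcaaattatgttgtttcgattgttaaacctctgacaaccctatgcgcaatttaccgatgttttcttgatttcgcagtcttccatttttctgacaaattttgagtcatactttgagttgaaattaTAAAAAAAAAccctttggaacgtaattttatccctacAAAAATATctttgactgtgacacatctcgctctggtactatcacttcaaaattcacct
Rpt3, bound: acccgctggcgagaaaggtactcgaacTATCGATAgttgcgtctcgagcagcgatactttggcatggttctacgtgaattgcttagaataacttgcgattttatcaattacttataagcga
Rpt5, not bound: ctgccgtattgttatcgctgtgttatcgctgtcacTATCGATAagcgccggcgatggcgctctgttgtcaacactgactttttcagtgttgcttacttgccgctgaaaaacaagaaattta
Rpt4, not bound: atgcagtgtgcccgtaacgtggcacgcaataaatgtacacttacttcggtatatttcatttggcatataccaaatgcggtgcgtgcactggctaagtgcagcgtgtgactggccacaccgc

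The sequences shown differ in GC content, but Rpt5 and Rpt4 were picked by start-site distance and do not stand for the unbound genes. From 250 bp upstream to 50 bp downstream of the start site, median GC was 32.2% in bound subunit genes. It was 33.8% in unbound subunit genes and 38% in all genes. GC made up 27.3% of the Prosbeta2 sequence, 28.0% of the Rpn3 sequence and 33.1% of the Rpn5 sequence, against 43.0% for Rpt3, 45.5% for Rpt5 and 50.4% for Rpt4. The Rpn3 sequence holds an exact direct repeat, in which bases 1 to 73 recur 78 bp further on as bases 79 to 151. The main-list summit lay outside both copies. Any part of the repeat in the placement of reads was not tested.

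The share of proteasome genes bound was near the background, and all of the bound ones were standard subunits with a divergent partner. Of all bound protein-coding genes, 1284 of 2383 had a divergent partner. Of the 48 genes, 6 were bound (12.5%, interval 4.73 to 25.2%), against 17.1% of all protein-coding genes. They were Rpn3, Rpn6 and Rpn5 of the lid, Rpn13 and Rpt3 of the base, and Prosbeta2 of the core. The share over all genes lies within the interval of the subunit genes, so the list as a whole is near the background. Replicate 1's own thresholded list gave 5 bound subunit genes, against 12.9% of all genes, and that of replicate 2 gave 4, against 14.1%. These are shares of 10.4% and 8.33%. The bound sites ran from strong to weak, with main-list ranks from 687 (Rpn3) to 4349 (Rpt3) of 4699.

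**Figure D1:**
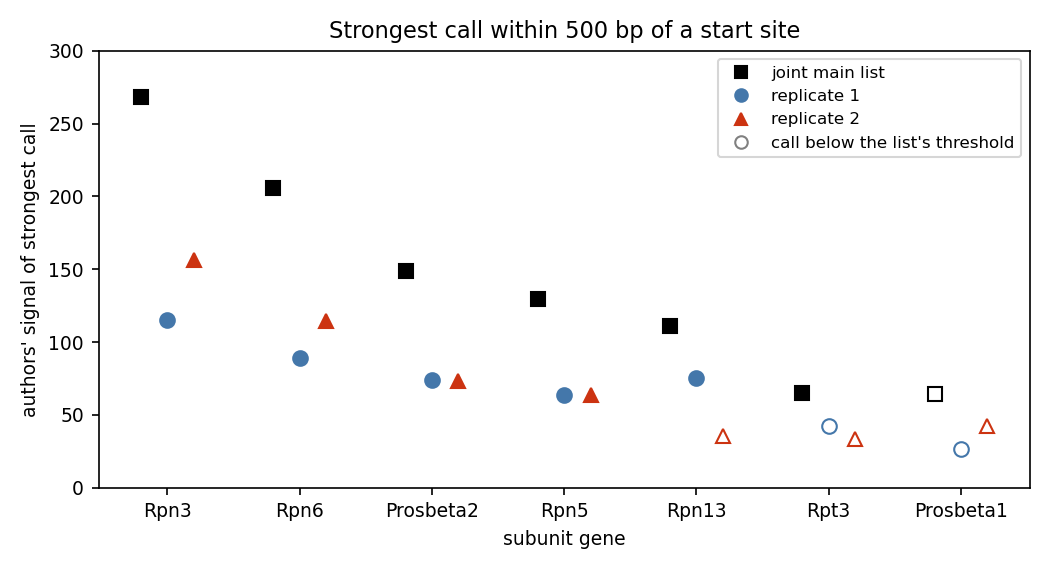
Authors' signal of the strongest call within 500 bp of a start site for the 6 bound subunit genes and for Prosbeta1, in the joint main list (squares), replicate 1 (circles) and replicate 2 (triangles), with open symbols for calls that are in a ranked list but not in the thresholded one. Rpn3, Rpn6, Prosbeta2 and Rpn5 have filled symbols in all 3 lists, Rpn13 lacks replicate 2, and Rpt3 lacks both libraries.

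The lid held 3 of the 6 bound genes, a share that is not apart from the background. Its 9 genes are Rpn3, Rpn5, Rpn6, Rpn7, Rpn8, Rpn9, Rpn11, Rpn12 and the paralogue Rpn12R, and 3 of them were bound (33.3%, interval 7.49 to 70.1%), the same number in each library's own list. Both the 17.1% of all genes and the 33.7% of all genes with a divergent partner lie inside this interval. All 3 belong to the 6 lid subunits with a PCI domain, the helical fold by which lid subunits assemble (Rpn3, Rpn5, Rpn6, Rpn7, Rpn9 and Rpn12), and the interval for 3 of 6 (11.8 to 88.2%) again holds both values. Neither of the MPN-domain subunits, Rpn11, which cleaves ubiquitin from the substrate, and its inactive counterpart Rpn8, was bound.

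Rpn3 (FBgn0261396, 2L, positions 19051790 to 19053681), a PCI subunit of the lid, had the strongest summit of the subunit genes. Its peak covered positions 19051704 to 19051855 with a signal of 268 (rank 687) in the main list, and the signal was 115 in replicate 1 (rank 837 of 3012) and 156 in replicate 2 (rank 572 of 3537). The summit lay between the genes, 3 bp upstream of the Rpn3 start site and 175 bp upstream of that of l(2)37Bb. At 152 bp the peak was narrower than the 350 bp of the other 5 genes' main-list peaks. Both libraries placed their summit within 17 bp of the Rpn3 start site.

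Rpn6 (FBgn0028689, 2R, positions 14750166 to 14752910), another PCI subunit, followed. Its peak (14752243 to 14752592) had a signal of 206 in the main list (rank 1046), 89.3 in replicate 1 and 115 in replicate 2, and the summit was at the same base in all 3 lists. It lay in an intron of the longer Rpn6 transcript, 147 bp upstream of the inner Rpn6 start site and 103 bp upstream of the start site of ave, a gene of Ras pathway signalling that overlaps Rpn6. The partner of Rpn6 is therefore a partner of its inner start site only.

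Rpn5 (FBgn0028690, 3R, positions 5789493 to 5791569), also a PCI subunit, shared its peak with Hat1, which encodes a histone acetyltransferase. The peak (5789140 to 5789489) had a signal of 130 in the main list (rank 2017), 63.8 in replicate 1 and 63.7 in replicate 2. In the main list the summit lay in an intron of Hat1, 178 bp upstream of the Rpn5 start site and 69 bp downstream of that of Hat1, and each library placed it in the 5' UTR of Hat1. The libraries differed little here in signal. A further main-list call with a signal of only 8.97 (rank 4606) lay in the 5' UTR of Rpn5, 28 bp downstream of its start, and was in neither library's own list.

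The base had 1 bound gene among its ATPases and 1 among its other subunits, and both calls were less steady than those of the lid. The ATPase genes are Rpt1, Rpt2, Rpt3, Rpt4, Rpt5 and Rpt6 with the paralogues Rpt3R, Rpt4R and Rpt6R, and 1 of 9 was bound. The other base genes are Rpn1 and Rpn2, which are scaffolds, the ubiquitin receptors Rpn10 and Rpn13, and the paralogue Rpn13R, and 1 of 5 was bound. These shares are 11.1% (interval 0.281 to 48.2%) and 20% (interval 0.505 to 71.6%). Both intervals hold the 17.1% of all genes. Rpn13 (FBgn0033886, 2R, positions 13958545 to 13960404) had a peak at 13960303 to 13960652 with a signal of 111 (rank 2478). It was in the own list of replicate 1 (signal 75.6) but not of replicate 2, whose strongest ranked call there had a signal of 35.4. The summit lay between the genes, 74 bp upstream of Rpn13 and 197 bp upstream of CtsL1, which encodes the lysosomal protease cathepsin L.

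Rpt3 (FBgn0028686, X, positions 11125101 to 11126785) had the weakest bound site. Its peak (11124617 to 11124966) had a signal of 65.2 (rank 4349) and was in neither library's own list, where the strongest ranked calls had signals of 42.2 in replicate 1 and 33.5 in replicate 2. The summit lay 309 bp upstream of Rpt3 but 66 bp upstream of its partner CG11122. Of the bound genes, Rpt3 had its strongest summit closest inside the limit of 500 bp, and Rpn5 and Rpn6 came next.

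The core had 1 bound gene of 25 (4%, interval 0.101 to 20.4%), against 5 of 23 (21.7%, interval 7.46 to 43.7%) in the regulatory particle. The 17.1% of all genes lies inside both intervals, and no test of the difference between the particles was made. None of the 12 Prosalpha genes was bound (3 counts would be 25%, and the interval reaches 26.5%). They are Prosalpha1, Prosalpha2, Prosalpha3, Prosalpha4, Prosalpha5, Prosalpha6 and Prosalpha7 with the paralogues Prosalpha1R, Prosalpha3T, Prosalpha4T1, Prosalpha4T2 and Prosalpha6T. The 13 Prosbeta genes are Prosbeta1, Prosbeta2, Prosbeta3, Prosbeta4, Prosbeta5, Prosbeta6 and Prosbeta7 with the paralogues Prosbeta2R1, Prosbeta2R2, Prosbeta4R1, Prosbeta4R2, Prosbeta5R1 and Prosbeta5R2, and only Prosbeta2 was bound. In the other joint list Prosbeta1 was bound as well, so the core count there was 2.

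Prosbeta2 (FBgn0023174, 3L, positions 14999951 to 15001319) encodes the subunit with the trypsin-like protease site. Its peak (14999651 to 15000000) had a signal of 149 in the main list (rank 1678), 73.9 in replicate 1 and 73.7 in replicate 2. The libraries gave nearly the same signal, with summits at 108 and 147 bp upstream of the start site. The main-list summit lay between the genes, 125 bp upstream of Prosbeta2 and 160 bp upstream of mRpL39, a gene of the mitochondrial ribosome. The other protease sites belong to Prosbeta1 (caspase-like) and Prosbeta5 (chymotrypsin-like), and these differed from each other. Prosbeta1 had a peak with a signal of 64.4 in the other joint list, 57 bp upstream of its start site and 64 bp upstream of that of Rrp42, while Prosbeta5 had no call of any strength in the ranked list of either library.

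No subunit gene had its nearest main-list summit between 309 bp (Rpt3) and 1065 bp (Prosbeta6). The nearest main-list summits of unbound genes lay 1065 bp from Prosbeta6, 2310 bp from Prosbeta1 and 2435 bp from Prosalpha3, and the furthest was 72967 bp from Prosalpha4T1. Over all 48 genes the median distance was 7792.5 bp, against 7806 bp over 13888 genes on arms with a main-list peak.

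**Figure D2:**
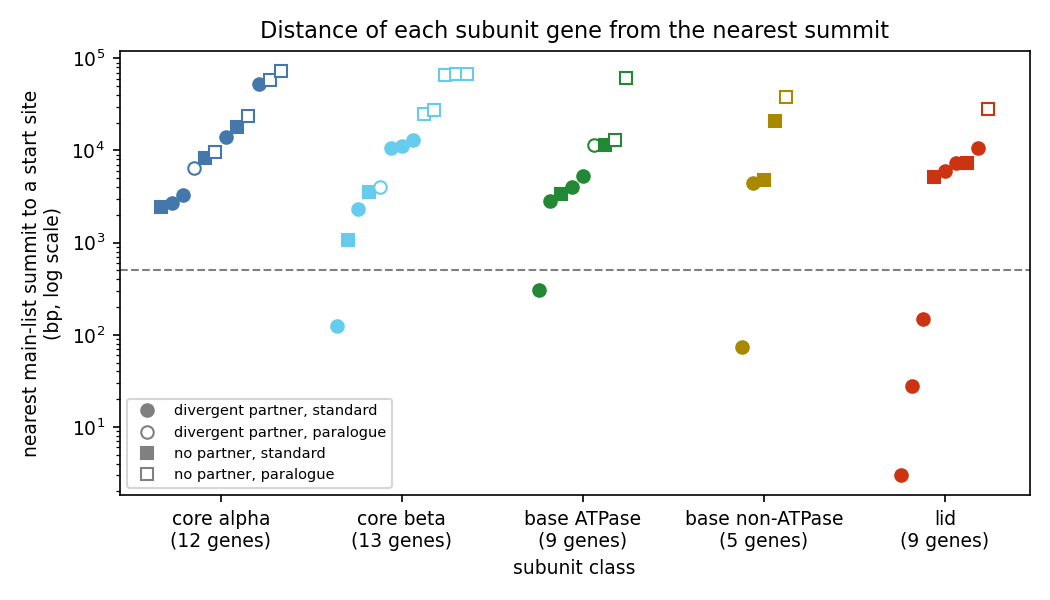
Distance in bp (log scale) from each of the 48 subunit genes to the nearest main-list summit, by subunit class, with circles for genes with a divergent partner, squares for genes without, and open symbols for paralogues. The 6 points below the dashed line at 500 bp are all filled circles, with Rpn5 placed at its weak summit 28 bp away, and the next gene above it is Prosbeta6 at 1065 bp.

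Divided by partner, the subunit genes fell into 24 with a divergent partner, 6 of them bound (25%, interval 9.77 to 46.7%), and 24 without, of which 0 were bound (3 counts would be 12.5%, and the interval reaches 14.2%). Among all protein-coding genes 33.7% of those with a partner and 10.8% of those without were bound. In both classes the share of the subunit genes was thus below that of all genes, and both values for all genes lie within the intervals of the subunit genes. Of the core genes 11 had a partner and 1 was bound (9.09%, interval 0.23 to 41.3%), and of the regulatory genes 13 had one and 5 were bound (38.5%, interval 13.9 to 68.4%). A further rule, added after the data were seen, took the partner for the furthest upstream start site only. By it 20 genes had a partner, 5 of them bound, and 1 of 28 without was bound, Rpn6. Over all genes the shares under this rule were 33.3% with a partner and 11.3% without.

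**Figure D3:**
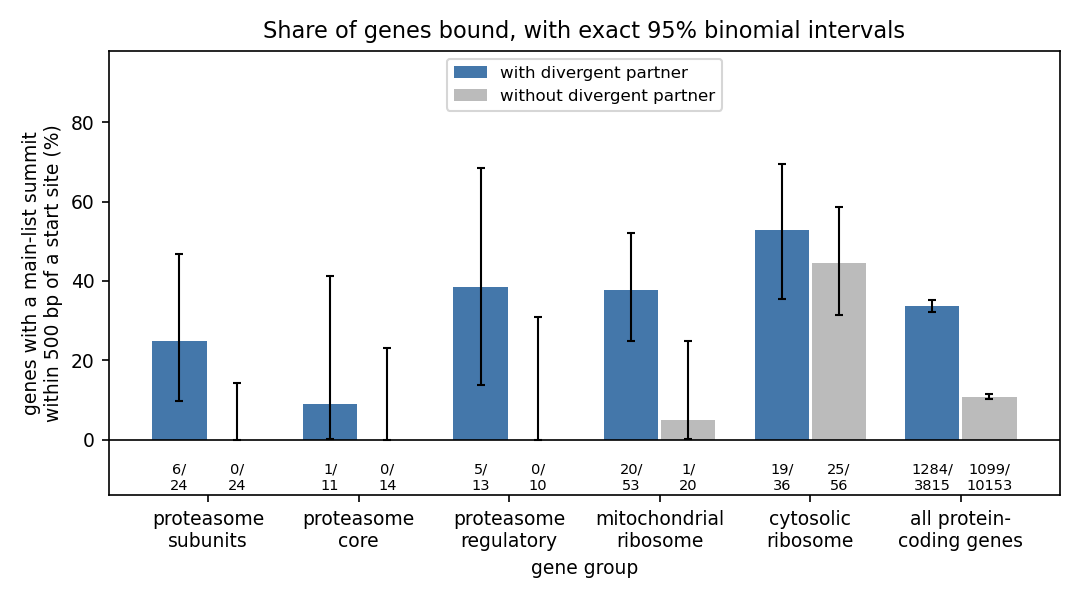
Share of genes with a main-list summit within 500 bp of a start site, in genes with (blue) and without (grey) a divergent partner, with exact 95% binomial intervals and counts under the bars. The subunit genes without a partner stand at 0 in core and regulatory particle, while cytosolic ribosomal protein genes without a partner stand at 44.6%.

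The bound divergent promoters were not set apart by the distance between their start sites. It ran from 109 to 375 bp in the 6 bound cases (median 260.5 bp) and from 42 to 417 bp in the 18 others (median 227.5 bp), so the groups overlap widely. The 4 closest pairs, Rpt5 with RanBP3 (42 bp), Rpt4 with mldr (58 bp), Rpt2 with CG13599 (81 bp) and Prosalpha4 with the katanin subunit gene kat80 (90 bp), were all unbound. Over all genes with a partner the median distance was 257 bp in bound genes, with a lowest value of 2 bp, and 232 bp in unbound genes. In 5 of the 6 bound cases the summit lay between the start sites, and in the Rpn5 case it lay just inside Hat1. It was nearer to the subunit gene at Rpn3, Rpn13 and Prosbeta2, and nearer to the partner at Rpn6, Rpn5 and Rpt3. All 6 partners count as bound through the same peaks, and none of the 19 partners of unbound subunit genes was bound. With start sites at most 417 bp apart, the windows of 500 bp around them overlap. Member and partner calls therefore agree largely by the rule.

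**Figure D4:**
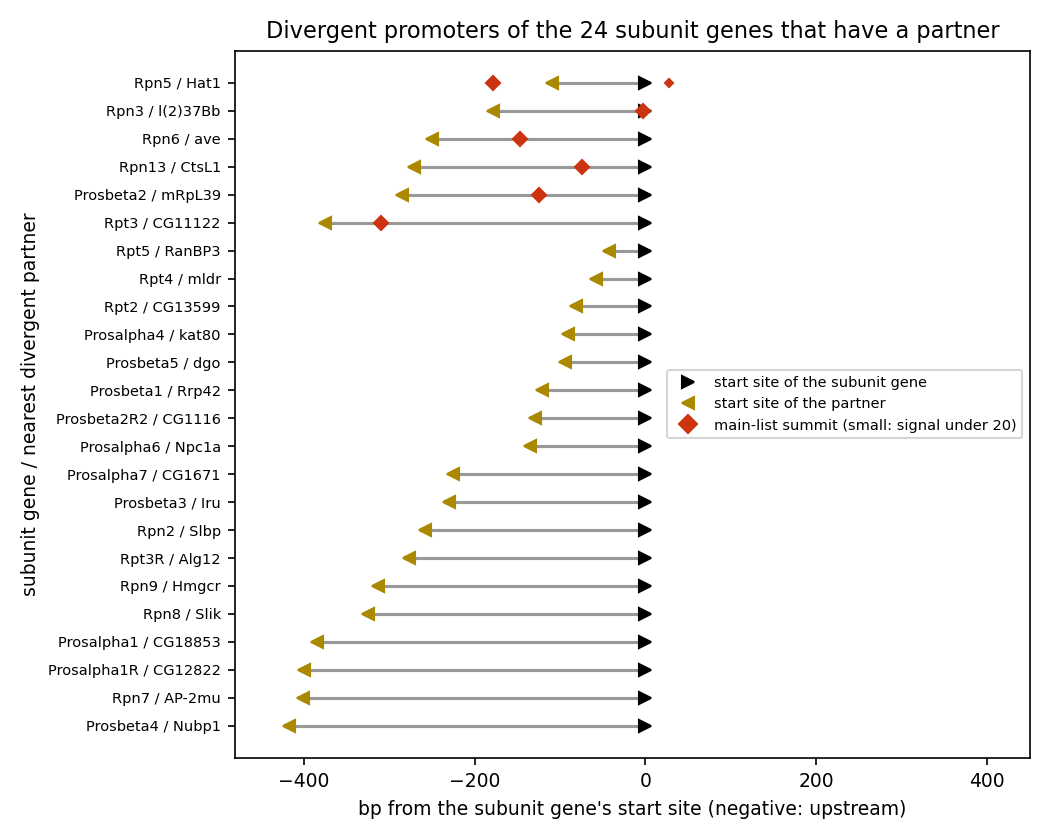
Start sites of the 24 subunit genes with a divergent partner (black, at 0) and of the nearest partner (gold), with main-list summits in red, as distance in bp from the subunit gene's start site. The 6 bound promoters are at the top, and gaps from 42 to 417 bp below them hold no summit.

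None of the 16 paralogue genes was bound in the main list, in the other joint list or in either library's own list (3 counts would be 18.8%, and the interval reaches 20.6%). Of the 32 standard genes 6 were bound (18.8%, interval 7.21 to 36.4%), near the 17.1% of all genes. Paralogues also lay further from main-list summits, at a median of 27819 bp (lowest 4000 bp, at Prosbeta2R2) against 4619 bp for standard genes. Of the paralogues 3 had a divergent partner, against 21 of the standard genes, and the part of this difference in the counts was not tested.

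Ranked calls of any strength, those at bound genes included, were about as common at subunit genes as at all genes. In the ranked list of replicate 1, 33 of 48 subunit genes (68.8%) had a call of any strength within 500 bp of a start site, against 68.6% of all genes, and in that of replicate 2, 29 (60.4%) against 58.7%. Calls in the upper 10% of the list were present at 11 subunit genes in replicate 1 (22.9%, against 24.6% of all genes) and at 7 in replicate 2 (14.6%, against 22.5%). Standard genes had such a call in 8 of 32 cases in replicate 1 and 7 of 32 in replicate 2, and paralogues in 3 and 0 of 16. Among the 42 unbound subunit genes, 27 had a call of any strength in replicate 1 (64.3%, against 62.2% of all unbound genes) and 23 in replicate 2 (54.8%, against 50.4%). In the upper 10% the counts were 5 in replicate 1 (11.9%, against 9.38% of all unbound genes) and 1 in replicate 2 (2.38%, against 7.15%). These few genes were Prosalpha3, Prosalpha3T, Prosalpha4, Prosalpha6T and Rpn13R in replicate 1 and Prosbeta1 in replicate 2.

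The unbound genes with the best calls in both libraries were Prosbeta1, Rpn11 and Prosalpha3. Prosbeta1 stood at the percentile 88.9 in replicate 1 (signal 26.4) and 94.3 in replicate 2 (signal 42.3). Rpn11 stood at 87.5 and 83.7, and Prosalpha3 at 95.0 and 83.7. All 6 bound genes stood at 96.7 or higher in replicate 1 and at 91.3 or higher in replicate 2, where only Prosbeta1 of the unbound genes reached them. Bound genes were defined through the joint list of these same libraries. Their high standing in each library therefore follows largely from that choice and is no separate result. At the other end, 12 of 48 genes (25%, against 23.2% of all genes) had no call in either library. They were Prosalpha1, Prosalpha1R, Prosalpha6, Prosbeta4, Prosbeta5, Prosbeta5R2, Prosbeta6, Prosbeta7, Rpn10, Rpn12, Rpt2 and Rpt6R.

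**Figure D5:**
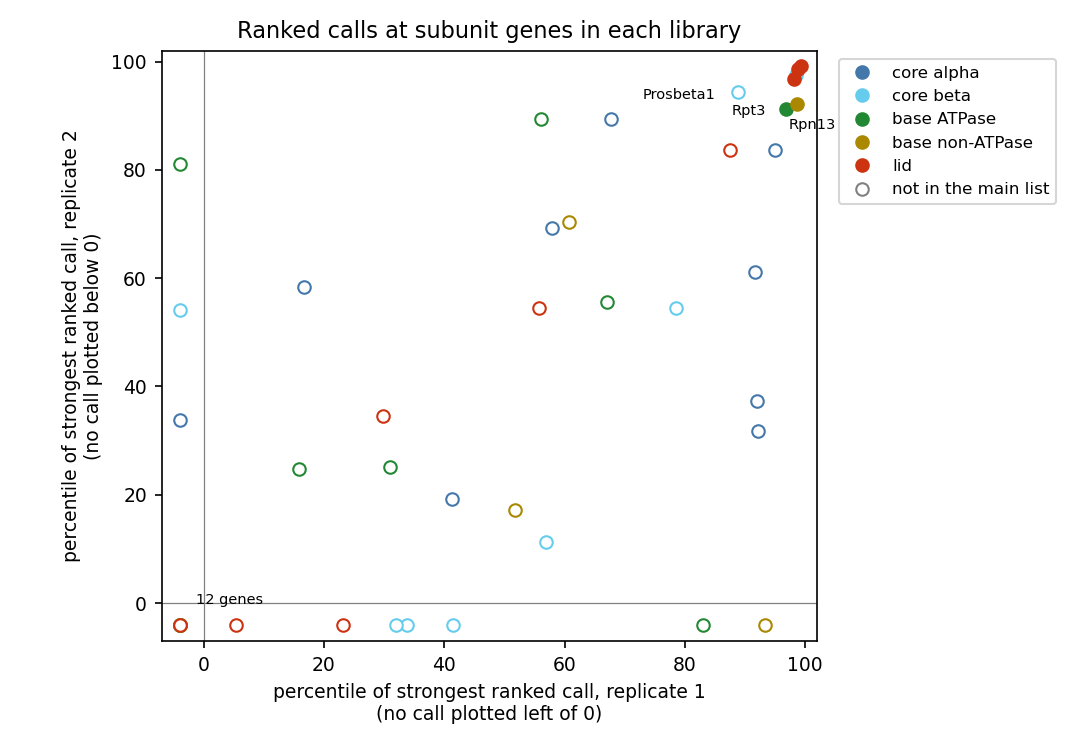
Percentile of the strongest ranked call within 500 bp of a start site in replicate 1 and replicate 2 for the 48 subunit genes, coloured by subunit class, with open symbols for genes not in the main list and genes without a call drawn beyond 0. The 6 bound genes sit at the upper right, and 12 genes share the point without a call in either library.

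The promoters of standard subunit genes often held the DNA replication-related element, bound or not. TATCGATA, searched on both strands from 250 bp upstream to 50 bp downstream of the furthest upstream start site, was present in 12 of 32 standard genes (37.5%) and in 0 of 16 paralogues, against 9.36% of all promoters of this length and 17.4% of those with a divergent partner. It was present in 3 of the 6 bound genes, Rpn3, Prosbeta2 and Rpn13, and in 9 of the 26 unbound standard genes (34.6%), Prosalpha3, Prosalpha5, Prosalpha6, Prosbeta1, Prosbeta6, Rpn7, Rpn9, Rpn12 and Rpt5. At Prosbeta2 a copy was centred 119 bp from the summit and 6 bp upstream of the start site. Another lay 131 bp from the summit and 256 bp upstream of the start site, outside the searched promoter. At Rpn3 the copies were 83 and 190 bp from the summit. The nearer one was 80 bp downstream of the start site, also outside the searched promoter. At Rpn13 the copy was 140 bp from the summit. At Rpt3 it was 29 bp from the summit and 338 bp upstream of the start site, again outside the searched promoter. Windows of 101 bp at all 1891 main-list summits at protein-coding promoters held the element in 2.75% of cases, against 0.37% in windows 500 bp to the right. CGATA, a shorter sequence contained in the element, was in 27 of 32 standard genes and 8 of 16 paralogues, against 47.3% of all promoters.

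The following other sequences were each in 0 or 1 of the 6 bound promoters. GGTCACAC, a core promoter sequence of broadly used genes, was in 5 of 48 subunit promoters (10.4%, against 7.69% of all), none of them bound. TGACNNNGC, the antioxidant response element through which the Nrf factor cnc acts, was in 6 (12.5%, against 8.62%), again none of them bound: Prosalpha2, Prosbeta3, Prosbeta4R2, Rpn1, Rpn7 and Rpt6. CAGCTG was in 2, Rpt3 and Rpt3R (4.17%, against 17.6%), GAGAG in 9 (18.8%, against 29.7%), and TATAAA in 18 (37.5%, against 45.8%). TGACTCA was in 1 of the 48, the bound gene Rpn5, CAGGTAG in 2 and AACCGGTT in 0. The bound gene among those with CAGCTG was Rpt3, and GAGAG and TATAAA were each in 1 bound promoter. At Rpn6 the searched promoter did not reach the main-list summit, and the 101 bp at that summit held TATAAA.

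GC content at the bound summits spread around the median of all main-list summits. GC content over 101 bp at the main-list summit was 14.9% at Prosbeta2, 25.7% at Rpn3, 26.7% at Rpn13, 31.7% at Rpn6, 37.6% at Rpn5 and 40.6% at Rpt3, and the median of all main-list summits was 33.7%. Thus 4 of the 6 fell below that median, and Rpn5 and Rpt3 lay above it. The 10 sequences of 7 bases that gained most at the stronger summits on the second chromosome, relative to flanks, consist of A and T only, and TTAAAAA, for example, was in 17.3% of summit windows and 5.48% of flanks. On the remaining arms it was in 16.1% and 5.77%. At least 1 of the 10 was present in the windows of Prosbeta2 (3), Rpn6 (3), Rpn3 (2) and Rpn13 (1) and in none at Rpn5 and Rpt3, against 62.9% of all promoter summits and 29.9% of their flanks. All promoter summits include windows from which the 10 were chosen, so their contrast with flanks follows partly from that choice. In the searched promoters at least 1 of the 10 was present in 5 of 6 bound and 37 of 42 unbound subunit genes. Over all promoters the share was 79.2%. Singly, the 10 were in from 0 (for example ATAAATA) to 4 (TTAAAAA) of the 6 bound promoters.

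Other genes of the ubiquitin and proteasome pathway were bound in 7 of 32 cases (21.9%), against the same 17.1% of all genes. Those of proteasome assembly and control were Pomp, which helps the core particle mature (signal 189, rank 1213, in both libraries' own lists), Uch-L5, a deubiquitinase of the regulatory particle (signal 85.2, replicate 2 only), cnc (signal 115, both libraries), and the cnc inhibitor Keap1 (signal 104, replicate 1 only). The gene ben, which encodes a ubiquitin-conjugating enzyme (signal 231), was in both libraries' lists. TER94, which encodes the p97 unfoldase (signal 82.2), and the F-box gene ago (signal 65.6) were in neither. Of those without a divergent partner 4 of 18 were bound, against 10.8% of all such genes, and of those with one 3 of 14, against 33.7%, counts too small to set beside the subunit genes. The activator gene REG, the core regulator PI31, the lid subunit Sem1 and the deubiquitinase Usp14 were not bound.

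Shares at ribosomal protein genes, which belong to the other large housekeeping machines, were higher. For the cytosolic ribosome, 19 of 36 genes with a partner had a summit (52.8%, interval 35.5 to 69.6%), as did 25 of 56 without (44.6%, interval 31.3 to 58.5%). The latter interval does not overlap that of the 24 subunit genes without a partner (0 to 14.2%). For the mitochondrial ribosome the counts were 20 of 53 with a partner (37.7%, interval 24.8 to 52.1%) and 1 of 20 without (5%, interval 0.127 to 24.9%), and these intervals overlap those of the subunit genes. The differences themselves were not tested.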

How the data were processed

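Per the labels, chromatin of whole embryos was sheared by sonication to fragments of 200 to 800 bp. The deposited peak lists are on dm6, per the labels, thresholded by irreproducible discovery rate (IDR) or ranked, per the file headers. Joint lists derive from both libraries' alignments, and all lists share 1 further input file. Which aligner and peak caller made them is not given in the sources read here. Each list gives the authors' signal per peak, whose scaling is not stated, the authors' score (at least 830 in thresholded lists) and a deposited -log10 q-value that was not used. No counts were analysed, so depth is unknown.

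Peaks off the chromosome arms were left out (47 of 4746 in the main list). All ends lay within the RefSeq arm lengths. Genes are those of Ensembl release 115 on BDGP6.54. Promoter sequences ran from 250 bp upstream to 50 bp downstream. Words of 7 bases were ranked in 101 bp windows against windows 500 bp to the right, over the upper 50% of main-list summits on 2L and 2R without the subunit promoters. Python 3.11.15, numpy 2.4.6, scipy 1.17.1, pandas 2.3.3 and matplotlib 3.10.9 were used. Bound calls, partners and distances were tested on simulated data.

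No test over the list was made. The subunit genes, the other lists and the motifs were chosen with earlier results of these data known. Named are bound genes, their partners, the nearest cases outside and inside 500 bp, the best unbound calls, genes without a call and bound pathway genes. The genes with an upper 10% call, with a motif or with the closest partners, Prosbeta5, and the unbound pathway genes were named after their values were seen. Of 33 pathway symbols 32 matched, and 1 further gene of the list is not reported here. The alternatives tried were each library's list, the other joint one, the upper 50%, summits within 1 kb counted once, other widths, overlap, gene bodies, start sites and partner rules.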

Additional observations from a re-analysis of the deposited data

How the results depend on the processing

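Of 76 alternative counts over 13 settings, 72 stayed within 1.5 times the reported count. With the other joint list the core count was 2, through Prosbeta1, and 7 of 48 genes were bound (14.6%, against 17.8% of all genes). In the upper 50% of the list by signal the regulatory count was 3, without Rpn13 and Rpt3. The share over all genes was not counted at this setting, and a shorter list can only lower it as well. With the partner of the furthest upstream start site only, added after the data were seen, 1 of 28 genes without a partner was bound. Of all such genes 11.3% were bound. Leaving out a replicate gave regulatory counts from 3 to 4 and counts over all subunit genes from 4 to 5: Rpt3 was lost in both libraries' own lists and Rpn13 in that of replicate 2. Rpt3 was also lost with promoters of 200 bp, which left 5 of 48 genes, against 11.8% of all genes. Summits counted once within 1 kb, promoters of 1000 bp, peak overlap, gene bodies and the furthest upstream start site kept the same 6 genes (12.5%). The share over all genes moved meanwhile. It was 19.8% with promoters of 1000 bp, 22.5% with gene bodies and 14.9% with the furthest upstream start site. For summits counted once within 1 kb and for peak overlap it was not counted. Paralogues stayed at 0 in the 10 settings in which they were counted. With 48 genes and 2 libraries of unknown depth, shares rest on few calls. No paired analysis was possible because there is 1 group.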

Other observations

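Genes with more annotated start sites were bound more often, among the subunit genes as among all genes. Of the subunit genes with 1 start site 2 of 36 were bound (5.56%, interval 0.68 to 18.7%), against 13.0% of all such genes. Of those with more, 4 of 12 were bound (33.3%, interval 9.92 to 65.1%), against 28.4%. Both values for all genes lie within these intervals. By the rule, each added start site also widens the stretch in which a summit counts. The part of this in the counts was not tested. Outside the list, the ubiquitin-ribosome fusion gene RpS27A had a promoter summit in the own list of replicate 2 only (signal 87.2), and the testis F-box gene ntc in the other joint list only (signal 56.5).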
